A study of Mus musculus with 8 samples.

Results

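The comparison was between mouse embryonic stem cells with the HNRNPK 6A mutation and WT cells of the same hybrid line, CAST/Ei x 129/Sv/Jae, before differentiation. Its members were the 4 libraries labelled D0, 2 of 6A and 2 of WT, out of 8 in the series, and they were chosen by title. The other 4 libraries were 6A and WT at day 14, after embryoid body formation without leukemia inhibitory factor. All reads were counted for 24421 genes, of which 15458 passed the filter on low counts and were tested. Both genotypes were grown for 2 days on γ-irradiated mouse embryonic fibroblast feeders with leukemia inhibitory factor, and the feeders were removed before RNA was taken. The sources used here do not give what the 6A mutation substitutes or whether each genotype was 1 clone. The labels call the 2 libraries of a group biological replicates without saying whether they came from separate cultures, so p-values measure only the spread between these samples.

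HnRNP K is an abundant RNA-binding protein that prefers C-rich RNA and acts in transcription, splicing and translation. In X inactivation it links the Xist RNA to a Polycomb complex that ubiquitinates histones. Undifferentiated female stem cells have both X chromosomes active, so they carry little Xist RNA. Mouse stem cells in serum and leukemia inhibitory factor keep germ cell genes silent through DNA methylation and through a variant Polycomb complex that contains E2F6, MGA and MAX. They have an epithelial character, with claudins, cadherins and keratins, and they can move towards a primed state marked by Fgf5.

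Total counts were 12425526 and 15540163 in the 6A libraries, against 8618779 and 15269189 in the WT libraries, so a floor of 3 counts corresponded to 0.193 to 0.348 CPM in a single library. CPM are counts scaled to a common library size, here the TMM-adjusted size unless stated, and are given for each library. The smallest two-sided p that exact permutation of 2 libraries against 2 allows is 0.333. The calls therefore rest on the spread that edgeR estimates from all 8 libraries, those of day 14 included, and shares across genes. Hnrnpk itself (mm10, chromosome 13, 58391142 to 58403343, minus strand) stood at 527 and 538 CPM in 6A, against 880.0 and 709 CPM in WT (log2 fold change -0.58 ± 0.12, edgeR adjusted p = 0.040). The 6A values lay below both WT values, but the call was lost in 8 of 15 alternatives, among them the fits without any 1 library other than WT replicate 2 at day 0 (edgeR adjusted p 0.0048 to 0.26 over the alternatives, log2 fold change -0.73 to -0.42). Xist had 54.6 and 64.7 CPM in 6A, against 73.1 and 57.8 CPM in WT, and Tsix, which overlaps it on the other strand, had 69.1 and 69.8 CPM in 6A, against 65.5 and 72.2 CPM in WT. Neither passed the test (edgeR adjusted p = 0.69 and 0.98). How reads of their overlap were assigned is uncertain. The sources used here do not state how strand was treated in counting, although the library kit marks strand. The 2 counts did differ, with 97.3% of allele reads from 129 for Xist and 28.1% for Tsix at day 0. At day 14 the means in 6A and WT were 966 and 1142 CPM for Xist, against 5.50 and 4.43 CPM for Tsix.

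Measures of feeder RNA were higher in the 6A libraries at day 0. They are given as CPM of the unadjusted library totals. The 8 listed Y-linked genes summed to 40.9 and 45.2 CPM in 6A, against 26.6 and 26.1 in WT (6A over WT 1.63, log2 0.71). Ddx3y, Eif2s3y, Kdm5d and Uty carried these counts, while Usp9y, Zfy1, Zfy2 and Uba1y were at 0 in all 4 libraries, and the sums at day 14 were between 0 and 0.101. A set of 90 genes that were read nearly only from the 129 genome at day 0 and from both genomes at day 14 summed to 3822 and 3669 CPM in 6A, against 2869 and 2892 in WT (6A over WT 1.30). The 49 fibroblast markers, none of them at 0, summed to 7884 and 7482 in 6A, against 5818 and 5964 in WT, again 1.30 times as high in 6A. On all 3 measures both 6A libraries lay above both WT libraries. The fibroblast markers made up 0.768% of the counts in 6A and 0.589% in WT. The sources used here do not name the strain of the feeders.

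**Figure D1:**
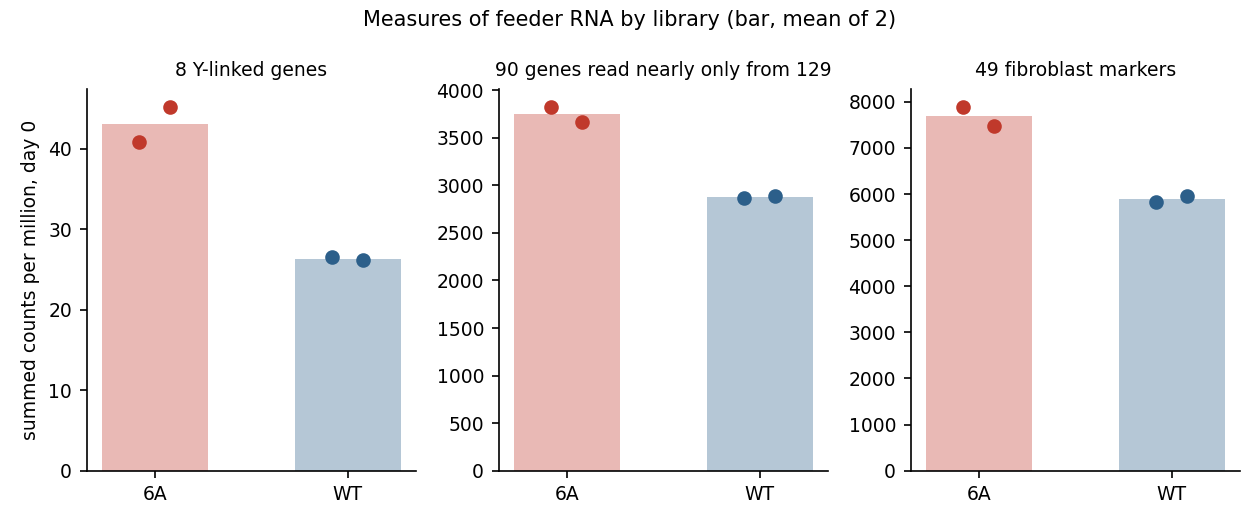
Measures of feeder RNA in undifferentiated cells, as summed CPM for 8 Y-linked genes, 90 genes read nearly only from the 129 genome and 49 fibroblast markers. Points are libraries and bars are means of 2 libraries, 6A left and WT right. The Y-linked sums were 40.9 and 45.2 in 6A and 26.6 and 26.1 in WT, and the 6A libraries lay above the WT libraries in all 3 panels.

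In undifferentiated cells 244 of the 15458 tested genes changed (1.58%, edgeR adjusted p under 0.05), with 164 higher (1.06%) and 80 lower (0.518%) in 6A. The rises with the smallest p-values included X-linked genes of the germ line, among them Scml2, Usp26 and members of the Xlr family, and autosomal germ cell genes such as Dazl and Tex15 rose with them. Genes that fell included epithelial adhesion and polarity genes such as Ap1m2, Esrp1 and Cldn4, and markers of primed cells such as Lef1 and Fgf5. The median size of a called rise was 0.79 on the log2 scale (0.46 to 3.92), and that of a called fall 0.94 (0.44 to 4.22). In all 244 the 2 groups did not overlap, which also held for 7056 of the 15458 tested genes, and 2530 genes had an unadjusted p under 0.05. The median over all tested genes was 0.01. The count was 23 when only the 4 libraries were fitted, and 57, 32, 567 and 160 without 6A replicate 1, 6A replicate 2, WT replicate 1 or WT replicate 2, and it was 148, 146, 78 and 82 without 6A replicate 1, 6A replicate 2, WT replicate 1 or WT replicate 2 of day 14. Of 112 called genes that were followed through 15 alternatives, 15 passed in all of them, namely Scml2, Usp26, Efhc2, Xlr3a, Xlr3b, Xlr3c, Xlr5a, Dazl, Tex15, Tuba3b, Zfp951, Ap1m2, Esrp1, Lef1 and Celsr3, and none of the 112 changed sign.

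**Figure D2:**
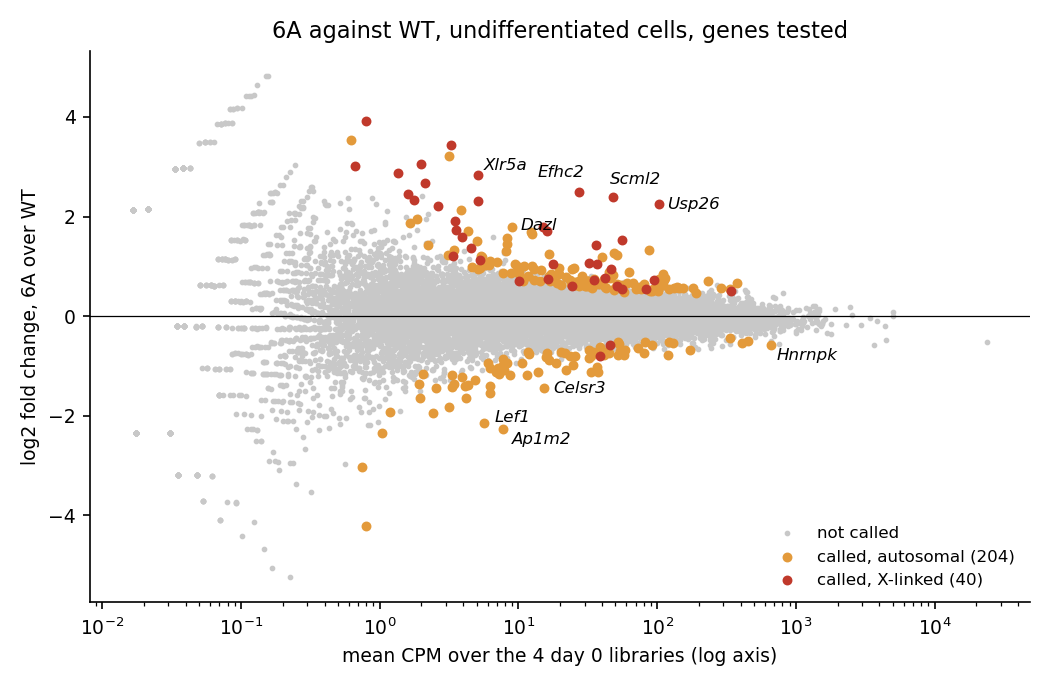
Log2 fold change of 6A over WT against the mean CPM of the 4 libraries of undifferentiated cells (log axis), for 15458 tested genes. Called genes on the X chromosome (40) and on autosomes (204) are coloured. Of the 40 X-linked genes 38 lie above 0 and 2 below.

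The X chromosome held 38 of the 164 rises (23.2%) and 2 of the 80 falls, with 590 of the tested genes. Of the X-linked genes 6.44% were called higher, whereas on the autosomes the share lay between 0.117% (chromosome 9) and 1.72% (chromosome 18). Over all X-linked genes tested 425 of 590 values were positive, with a median log2 fold change of 0.17. The median was 0.0085 over the 14868 tested genes of the other chromosomes, 5 of them on the Y chromosome. All 17 windows of 10 Mb along the X chromosome had a positive median, from 0.03 in the first 10 Mb to 0.46 between 60 and 70 Mb, and 14 of them held a called rise. The most in a window was 9, between 70 and 80 Mb, where the Xlr cluster lies. The count of X-linked rises was 9 with only the 4 libraries fitted, 22 with DESeq2, 11 to 47 without 1 library, and 31 with RLE scaling.

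Germ cell families held 15 of the 38 X-linked rises. The count tables listed 95 genes of these families. Of them, 34 had no count in any of the 4 libraries, 37 were tested, 15 were called higher and none lower, beside 1.06% of all tested genes called higher. The median over the 37 was 1.5, beside 0.01 over all tested genes, and 32 were positive. Scml2, a Polycomb-associated protein of the male germ line at 161.1 Mb, had 82.9 and 79.3 CPM in 6A, against 13.7 and 17.1 CPM in WT (log2 fold change 2.38 ± 0.14, edgeR adjusted p = 3.6e-06). Usp26 at 51.8 Mb, which encodes a testis deubiquitinase, had 165 and 173 CPM in 6A, against 43.1 and 28.7 CPM in WT (log2 fold change 2.25 ± 0.16, edgeR adjusted p = 2.1e-05). In both genes the 6A libraries lay close together and several times above the higher WT library.

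The promoters of 3 X-linked and 2 autosomal germline genes that rose are shown for their CpG, the dinucleotide that carries DNA methylation. Each runs from 250 bases before to 50 after the 5′-most RefSeq start (GRCm38.p6), 5′ to 3′ on the gene's strand, with CG in capitals.
Scml2 (chrX:161162500-161162799, plus strand): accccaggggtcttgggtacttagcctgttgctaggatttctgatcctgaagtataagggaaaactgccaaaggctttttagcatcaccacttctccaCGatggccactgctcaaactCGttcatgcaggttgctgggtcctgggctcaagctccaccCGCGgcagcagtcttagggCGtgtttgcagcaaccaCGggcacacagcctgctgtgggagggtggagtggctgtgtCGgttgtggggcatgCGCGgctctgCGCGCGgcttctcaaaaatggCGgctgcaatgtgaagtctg
Usp26 (chrX:51801184-51801483, minus strand): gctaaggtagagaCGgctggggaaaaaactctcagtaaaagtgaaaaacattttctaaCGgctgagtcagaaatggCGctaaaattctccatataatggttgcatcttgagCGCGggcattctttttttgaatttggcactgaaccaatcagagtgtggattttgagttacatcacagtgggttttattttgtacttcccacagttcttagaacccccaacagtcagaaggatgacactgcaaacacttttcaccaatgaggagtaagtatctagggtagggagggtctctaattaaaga
Xlr3a (chrX:73097046-73097345, minus strand): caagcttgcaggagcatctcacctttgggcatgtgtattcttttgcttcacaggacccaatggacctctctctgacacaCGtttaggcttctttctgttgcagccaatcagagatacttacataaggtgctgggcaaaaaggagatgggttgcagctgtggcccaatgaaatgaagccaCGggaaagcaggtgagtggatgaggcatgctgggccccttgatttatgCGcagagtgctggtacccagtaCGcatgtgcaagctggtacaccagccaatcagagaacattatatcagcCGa
Dazl (chr17:50293571-50293870, minus strand): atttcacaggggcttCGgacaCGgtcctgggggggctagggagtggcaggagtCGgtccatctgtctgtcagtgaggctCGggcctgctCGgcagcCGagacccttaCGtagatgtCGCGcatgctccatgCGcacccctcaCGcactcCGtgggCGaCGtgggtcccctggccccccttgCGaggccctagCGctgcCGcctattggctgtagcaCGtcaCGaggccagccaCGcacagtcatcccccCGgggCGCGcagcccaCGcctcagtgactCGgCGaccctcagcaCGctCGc
Tuba3b (chr6:145615713-145616012, plus strand): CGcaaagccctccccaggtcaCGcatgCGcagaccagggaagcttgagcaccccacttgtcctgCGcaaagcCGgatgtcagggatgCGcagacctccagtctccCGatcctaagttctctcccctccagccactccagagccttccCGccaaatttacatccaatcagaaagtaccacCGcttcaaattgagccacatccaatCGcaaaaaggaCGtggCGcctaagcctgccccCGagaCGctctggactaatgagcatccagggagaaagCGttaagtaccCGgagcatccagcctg
These promoters held 13 CpG in Scml2 and 5 each in Usp26 and Xlr3a, against 28 in Dazl and 16 in Tuba3b. The stretch of Scml2 lies at the RefSeq start, inside the span of 161117193 to 161258213 that GENCODE gives the gene, so the 2 annotations differ on its start. The 13 X-linked germline genes among the 15 that matched a RefSeq promoter had a median of 8 CpG (5 to 16), and the 34 matched X-linked rises a median of 9. The median was 14 over the 499 matched X-linked genes tested and 7 over all 27025 RefSeq promoters. The 5 matched autosomal germline genes that rose had a median of 17 (16 to 30). The E-box CACGTG, which MAX dimers bind, was searched on both strands. It was in none of the 13 X-linked promoters and in 1 of the 5 autosomal ones, in 13 of the 35 matched promoters of all tested autosomal germline genes (37.1%), in 12.2% of the 499 promoters of tested X-linked genes, and in 7.24% of 27025 RefSeq promoters. The motif GGCGGG, or CCCGCC on the other strand, was in 3 of the 13 and 3 of the 5, against 53.9% of the 499 X-linked promoters and 35.6% of all promoters. Runs of CCCCC or GGGGG, which are C-rich on 1 strand, were in 6 of the 13 and 3 of the 5, against 63.1% of the 499 X-linked promoters and 50.1% of all promoters.

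The Xlr genes encode nuclear proteins related to a component of the meiotic chromosome axis, and they lie in tandem between 73.1 and 73.3 Mb. Xlr3a had 79.7 and 85.3 CPM in 6A, against 31.1 and 26.6 CPM in WT (log2 fold change 1.52 ± 0.13, edgeR adjusted p = 9.6e-05). Xlr3b had 25.5 and 23.9 CPM in 6A, against 6.54 and 8.403 CPM in WT, and Xlr3c had 23.8 and 23.0 CPM in 6A, against 6.91 and 6.57 CPM in WT, with log2 fold changes of 1.70 and 1.80. The less abundant copies moved the same way. Xlr5a had 8.29 and 9.41 CPM in 6A, against 1.604 and 0.989 CPM in WT (2.84), and Xlr4a had 8.38 and 8.48 CPM in 6A, against 1.97 and 1.48 CPM in WT (2.32). Xlr5b had 40 counts in 6A against 2 in WT, 16.7 times as many after scaling, with an exact 95% interval of 4.33 to 143 that covers counting error only. The copies are nearly alike in sequence, and the sources used here do not say how reads were shared among them, so the level of any 1 copy is uncertain.

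Other X-linked families rose at lower levels. Nxf3, of the nuclear RNA export factor family, had 42.9 and 44.0 CPM in 6A, against 23.0 and 18.7 CPM in WT (log2 fold change 1.07 ± 0.17, edgeR adjusted p = 0.0094). Rhox5 and Rhox10 are homeobox genes of a reproductive cluster, and Rhox10 acts in spermatogonial stem cells. Rhox5 had 23.3 and 24.6 CPM in 6A, against 8.02 and 14.6 CPM in WT (1.04, edgeR adjusted p = 0.050), and Rhox10 had 2.48 and 3.40 CPM in 6A, against 0.617 and 0.565 CPM in WT (2.32, edgeR adjusted p = 0.035). Mageb16, a MAGE family gene of the testis, had 4.02 and 4.67 CPM in 6A, against 0.740 and 1.06 CPM in WT, and Pramel3, of the PRAME family, had 3.51 and 3.54 CPM in 6A, against 0.740 and 0.212 CPM in WT. Their log2 fold changes were 2.21 and 3.06. In each of these genes both 6A libraries lay above both WT libraries. Pet2 had 3.33 and 4.07 CPM in 6A, against 0.370 and 0.706 CPM in WT (2.67), and Tktl1, a transketolase-like gene, had 7.10 and 7.34 CPM in 6A, against 3.58 and 3.11 CPM in WT (1.13). Of the 15 genes, 6 passed in every alternative that used all reads. The list held 7 calls without 6A replicate 2, 9 without WT replicate 2 and 7 with only the 4 libraries fitted, against 15 with all 8 libraries.

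**Figure D3:**
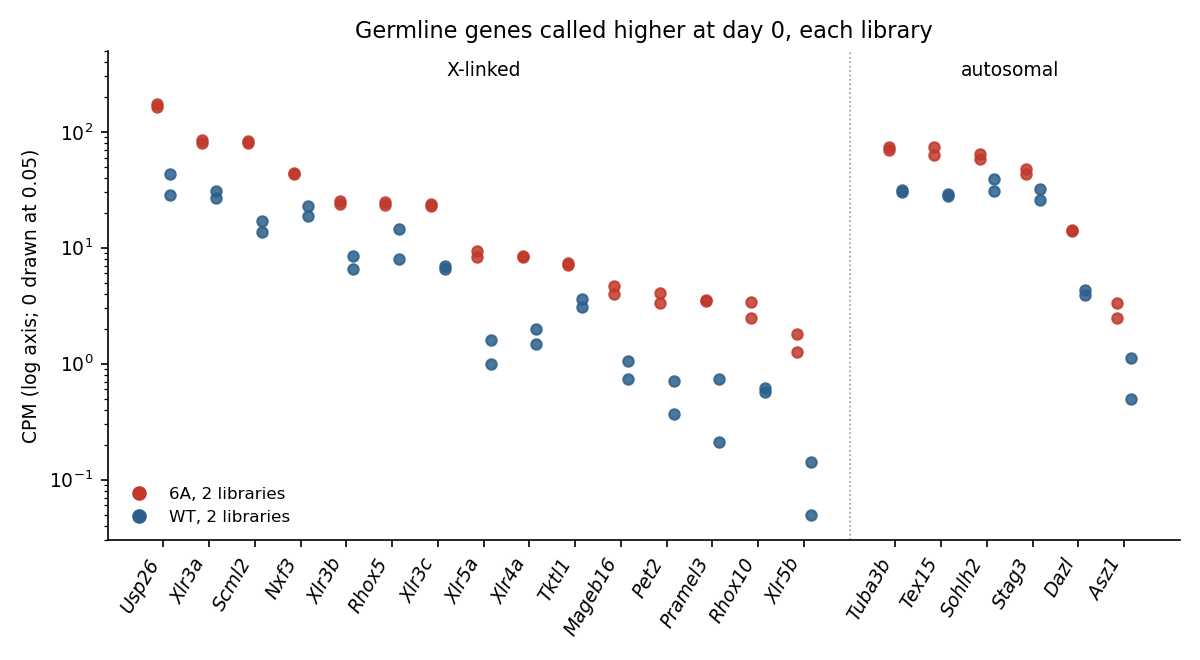
CPM (log axis) of the 15 X-linked and 6 autosomal germline genes called higher in undifferentiated 6A cells, with the 2 libraries of 6A left and the 2 of WT right for each gene. The values of 6A lie above those of WT in all 21 genes, and the highest were those of Usp26, at 165 and 173 CPM in 6A and 43.1 and 28.7 CPM in WT.

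Allele reads were set beside these rises because feeder RNA was higher in the same libraries. The 15 genes had 1594 CAST and 1057 129 reads in 6A, against 391 CAST and 192 129 reads in WT. Only 7 had enough CAST reads for a fit of CAST reads alone, and all 7 were positive there (0.76 to 2.74). Scml2 had 388 CAST and 281 129 reads in 6A, against 54 and 60 in WT, with a log2 fold change of 2.62 in CAST reads. Usp26 had 241 and 224 in 6A, against 38 and 21 in WT, and 2.32 in CAST reads. Over all X-linked rises 23 could be fitted, 22 had the same sign in CAST reads, and the median was 1.29 there, beside 1.13 in all reads. CAST reads are part of all reads, so agreement in sign was partly fixed in advance. The feeder strain is not known, and whether feeder reads were assigned to CAST was not tested. Some genes of distal chromosome 4 were read partly from CAST at day 0 and nearly only from 129 at day 14. Among them were Mfn2 (129 share 68.0% and 99.4%) and Tnfrsf1b (57.9% and 98.1%). In all, 21 of 6138 genes passed the test in CAST reads (0.342%), and 9 of the 15 higher ones were X-linked. Of the 38 X-linked rises 32 were larger than the Y-linked ratio of 1.63 (log2 0.71), which single fibroblast markers also exceeded (log2 fold change up to 0.95).

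X-linked genes outside the listed germline families rose as well, 23 in all. The split follows the list, and whether some of the 23 are also germ cell genes was not examined. Efhc2, an EF-hand protein at 17.1 Mb, had 45.1 and 47.6 CPM in 6A, against 10.7 and 6.28 CPM in WT (log2 fold change 2.49 ± 0.21, edgeR adjusted p = 9.6e-05). Sh3bgrl, a small SH3-binding protein, had 59.3 and 62.0 CPM in 6A, against 34.6 and 28.9 CPM in WT (0.94), and Nxt2, a partner of the NXF export factors, had 46.5 and 51.7 CPM in 6A, against 26.3 and 21.8 CPM in WT (1.04). Tsx, a gene next to Xist, had 6.58 and 6.61 CPM in 6A, against 2.47 and 2.61 CPM in WT (1.37). It was the only 1 of 10 tested genes of the X inactivation center that was called, beside 1.06% of all tested genes called higher, and the median of the 10 was 0.35. Among these 23, some abundant genes had smaller fold changes. Wnk3, a kinase that controls ion cotransporters, had 386 and 412 CPM in 6A, against 292 and 271 CPM in WT (0.50), and Atp7a, a copper transporter, had 97.9 and 99.9 CPM in 6A, against 68.4 and 67.0 CPM in WT (0.55). Phka1, a subunit of phosphorylase kinase, had 70.3 and 62.6 CPM in 6A, against 45.7 and 45.1 CPM in WT (0.55). Hsf3, of the heat shock factor family, had 2.05 and 3.40 CPM in 6A, against 0.494 and 0.494 CPM in WT (2.46). The others with a name were Zfp711, Map3k15, Il13ra1, Hs6st2, Agtr2, Capn6, Fmr1nb and Morc4, with log2 fold changes from 0.61 (Morc4) to 1.21 (Zfp711). Agtr2 and Il13ra1 were read from the 129 genome for 99.6% and 97.3% of their allele reads at day 0, and had under 20 allele reads at day 14. The 2 falls were Usp11, a deubiquitinase, at 28.5 and 27.8 CPM in 6A, against 47.6 and 51.0 CPM in WT (-0.81), and Pim2, a kinase that promotes survival, at 37.0 and 36.6 CPM in 6A, against 57.6 and 52.0 CPM in WT (-0.57).

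Autosomal germ cell genes rose as well. Of 42 tested 6 were called higher and none lower, beside 1.06% of all tested genes called higher, and their median was 0.39 with 29 positive. Dazl, an RNA-binding protein that germ cells need, had 13.9 and 14.1 CPM in 6A, against 4.32 and 3.88 CPM in WT (log2 fold change 1.78 ± 0.19, edgeR adjusted p = 0.00043). Tex15, which acts in piRNA-directed silencing and meiotic recombination, had 63.3 and 74.0 CPM in 6A, against 27.9 and 28.8 CPM in WT (log2 fold change 1.28 ± 0.13, edgeR adjusted p = 0.00043). Tuba3b, an alpha-tubulin of the testis, had 73.5 and 69.7 CPM in 6A, against 30.2 and 31.3 CPM in WT (log2 fold change 1.22 ± 0.13, edgeR adjusted p = 0.00043). In these 3 genes the lower 6A library was more than 2 times as high as the higher WT library, and each passed in every alternative of all reads. Tuba3b has a close copy, Tuba3a, so the share of reads between them is uncertain.

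The other 3 autosomal calls were smaller or at lower levels. Sohlh2, a transcription factor of early germ cells, had 58.7 and 64.0 CPM in 6A, against 39 and 31.0 CPM in WT (0.82, edgeR adjusted p = 0.017). Stag3, the meiotic cohesin subunit, had 43.5 and 47.5 CPM in 6A, against 25.9 and 31.8 CPM in WT (0.65, edgeR adjusted p = 0.043), and Asz1, of the piRNA pathway, had 3.33 and 2.47 CPM in 6A, against 1.11 and 0.494 CPM in WT (1.96, edgeR adjusted p = 0.050). The 6 calls became 3 without either 6A library and 3 with only the 4 libraries fitted. Allele reads of the 6 summed to 1455 CAST and 1144 129 reads in 6A, against 510 and 548 in WT. Dazl, Sohlh2 and Stag3 were read nearly only from the 129 genome, for 98.9%, 99.4% and 95.3% of allele reads at day 0 and 100%, 98.5% and 83.3% at day 14. Tex15 was read from the 129 genome for 15.95% and Tuba3b for 12.99% of allele reads, and their log2 fold changes in CAST reads were 1.23 and 1.24. Gpat2, an acyltransferase of the testis, had 23.3 and 23.1 CPM in 6A, against 9.38 and 10.1 CPM in WT (1.25); it stood on no list and is named after its values were seen. Nlrp4c, of an oocyte gene family with close copies, had 5.04 and 7.48 CPM in 6A, against 1.48 and 1.41 CPM in WT (2.13). It was the only 1 of 12 tested oocyte and 2-cell stage genes that was called, beside 1.06% of all tested genes called higher.

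Factors that keep such genes silent were looked at next, beside 1.06% of all tested genes called higher and 0.518% called lower. None of 27 tested members of the E2F6, MGA and MAX complex and related repressors was called by edgeR, with 2 at an unadjusted p under 0.05 and 1 call by DESeq2. Their median was 0.01. Rnf2, the ubiquitin ligase of the Polycomb complexes, had the smallest p and stood at 94.5 and 104 CPM in 6A, against 60.5 and 71.3 CPM in WT (0.59, edgeR adjusted p = 0.052). None of 18 genes of DNA methylation and demethylation was called by edgeR or DESeq2, with 4 at an unadjusted p under 0.05, and Dnmt3b, a de novo methyltransferase, had 216 and 223 CPM in 6A, against 255 and 311 CPM in WT (-0.37, edgeR adjusted p = 0.15). Of 30 Polycomb subunits Bmi1 was called higher, at 36.4 and 35.7 CPM in 6A, against 25.7 and 19.14 CPM in WT (0.70, edgeR adjusted p = 0.050), a call that 12 of 15 alternatives did not give.

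A stretch of distal chromosome 4 held 5 rises, and it was picked after its values were seen. From Prdm2 to Nppb 36 genes of several families were tested, 31 were positive, 5 were called higher and none lower, beside 52.0% positive and 1.06% called higher among all tested genes. Zfp600 and Zfp534 are named as zinc finger genes. Gm13247 had 115 and 136 CPM in 6A, against 47.8 and 51.5 CPM in WT (1.34). Zfp600 had 32.6 and 33.4 CPM in 6A, against 17.3 and 16.7 CPM in WT (0.96), and Zfp534 had 61.8 and 59.7 CPM in 6A, against 35.3 and 30.4 CPM in WT (0.89). Gm13128 had 8.04 and 6.88 CPM in 6A, against 2.59 and 2.61 CPM in WT (1.51), and Miip, which inhibits cell migration, had 11.9 and 12.3 CPM in 6A, against 3.95 and 4.73 CPM in WT (1.46). The 129 share was 83.1% at day 0 and 99.4% at day 14 in Miip, and 80.5% and 78.9% in Gm13247. Zfp600, Zfp534 and Gm13128 had too few allele reads at day 14. Uncalled genes of the stretch also differed between days, such as Plod1 (72.1% and 99.6%). The part of feeder RNA in this stretch was not tested. Zfp951 on chromosome 5 had 19.07 and 19.03 CPM in 6A, against 5.18 and 6.78 CPM in WT (log2 fold change 1.64 ± 0.19, edgeR adjusted p = 0.00087). Zinc finger genes can have close copies, so read assignment is uncertain. Over all 350 tested genes named Zfp 4 were called higher and none lower, beside 1.06% and 0.518% of all tested genes, with a median of 0.07.

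A group of epithelial genes fell in 6A. Of 43 tested genes of epithelial junctions and polarity 6 were called lower and none higher, beside 0.518% of all tested genes called lower, and the median was -0.42 with 37 negative. Ap1m2, an adaptor subunit that sorts cargo to the basolateral membrane of epithelia, had 3.08 and 2.27 CPM in 6A, against 14.3 and 11.4 CPM in WT (log2 fold change -2.27 ± 0.24, edgeR adjusted p = 0.00043). Esrp1, which directs epithelial splicing, had 23.5 and 24.8 CPM in 6A, against 48.4 and 50.3 CPM in WT (log2 fold change -1.03 ± 0.13, edgeR adjusted p = 0.0015). Both passed in every alternative of all reads, and the 6A libraries lay at less than 0.6 times the lower WT library.

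The other epithelial calls were of junction and filament genes. Cldn4, a claudin of tight junctions, had 30.7 and 30.0 CPM in 6A, against 53.8 and 50.6 CPM in WT (-0.78, edgeR adjusted p = 0.017). Lad1, an anchoring filament protein, had 14.8 and 13.5 CPM in 6A, against 23.6 and 36.0 CPM in WT (-1.09, edgeR adjusted p = 0.014), and Arhgef16, a guanine nucleotide exchange factor, had 0.770 and 1.202 CPM in 6A, against 3.83 and 3.95 CPM in WT (-1.94, edgeR adjusted p = 0.0068). Krt18, a keratin of simple epithelia, had 6.50 and 4.67 CPM in 6A, against 9.26 and 10.7 CPM in WT (-0.87, edgeR adjusted p = 0.035). The 6 calls became 3 without either 6A library, and 2 with only the 4 libraries fitted, but 12 with no filter on low counts. In CAST reads Cldn4 and Ap1m2 had log2 fold changes of -0.83 and -3.25.

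Other falls of adhesion, junction, keratin and receptor genes lay outside the list. Celsr3, an atypical cadherin of planar polarity, had 8.29 and 8.21 CPM in 6A, against 21.1 and 23.9 CPM in WT (log2 fold change -1.45 ± 0.17, edgeR adjusted p = 0.00087). Evpl, which encodes the junction protein envoplakin, had 1.54 and 1.27 CPM in 6A, against 2.71 and 4.66 CPM in WT (-1.45), and Krt17, another keratin, had 7.27 and 6.94 CPM in 6A, against 15.8 and 16.4 CPM in WT (-1.18). Epha1, an ephrin receptor, had 3.85 and 1.94 CPM in 6A, against 6.42 and 7.27 CPM in WT (-1.29), and Mcam, an adhesion molecule, had 65.2 and 69.0 CPM in 6A, against 95.1 and 97.7 CPM in WT (-0.52). The 6A libraries lay below the WT libraries in each of these genes. Eppk1, a plakin, at 24.8 and 22.8 CPM in 6A, against 48.3 and 54.6 CPM in WT (-1.11), and Bcam, a laminin receptor, at 37.9 and 38.2 CPM in 6A, against 65.2 and 66.1 CPM in WT (-0.79), were chosen after their values were seen. So were Zeb1 and Zeb2, repressors of epithelial genes, which rose. Zeb1 had 78.9 and 85.7 CPM in 6A, against 50.6 and 53.9 CPM in WT (0.65), and Zeb2 had 35.7 and 41.6 CPM in 6A, against 23.7 and 26.8 CPM in WT (0.61). Both log2 fold changes were below the 0.71 of the Y-linked sum, and Zeb1 was read from the 129 genome for 96.1% at day 0 and 98.3% at day 14, Zeb2 for 78.6% and 49.6%. The fibroblast markers summed to 7884 and 7482 CPM in 6A, against 5818 and 5964 in WT, as given above, and their part in these rises was not tested. In bulk RNA, fewer cells of a type and less RNA per cell cannot be told apart.

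**Figure D4:**
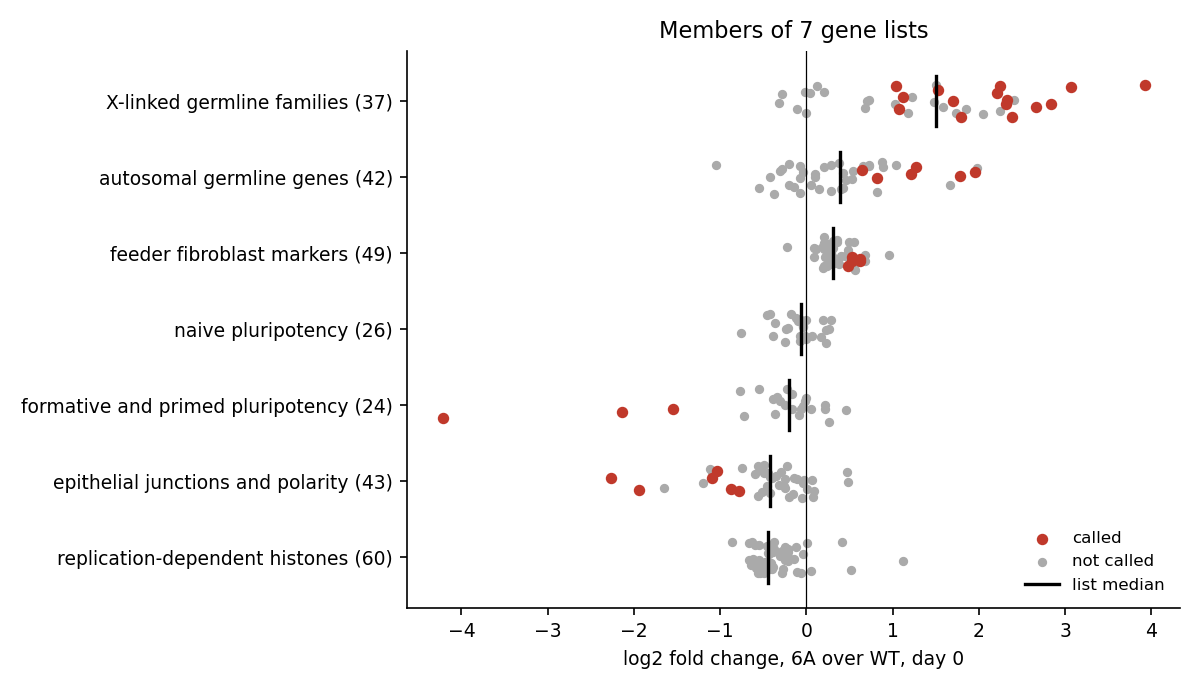
Log2 fold changes of 6A over WT in undifferentiated cells for the tested members of 7 gene lists (number of genes in brackets), with called genes in red and the median as a bar. The medians ran from 1.5 in the X-linked germline families to -0.45 in the histones, and called genes lie to 1 side of 0 in every list that has them.

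Some markers of primed cells fell, and no marker of naive cells passed the test. Of 24 formative and primed genes 3 were called lower and none higher, beside 0.518% of all tested genes called lower, and the median was -0.20. Fgf5, a growth factor of the primed epiblast, had 2 counts in 6A against 36 in WT, which after scaling is 21.6 times as many in WT (exact 95% interval 5.55 to 185, counting error only; edgeR adjusted p = 0.0075). Lef1, a transcription factor of Wnt signalling, had 1.97 and 2.20 CPM in 6A, against 7.65 and 10.6 CPM in WT (log2 fold change -2.14 ± 0.26, edgeR adjusted p = 0.0012). Vrtn, a DNA-binding protein linked to vertebral number in pigs, had 3.33 and 2.94 CPM in 6A, against 11.0 and 7.70 CPM in WT (-1.55, edgeR adjusted p = 0.010). Both 6A libraries lay under both WT libraries in each of the 3. With only the 4 libraries fitted the calls of Fgf5 and Vrtn were lost. The call of Fgf5 was also lost without 6A replicate 2 or WT replicate 2 (edgeR adjusted p up to 0.094), and that of Vrtn without 6A replicate 2 (edgeR adjusted p up to 0.11).

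Of 26 naive genes none was called by edgeR or DESeq2, and 4 had an unadjusted p under 0.05. Their median was -0.07 with 19 negative. Nr0b1, a nuclear receptor of naive cells, had the smallest p and stood at 143 and 139.5 CPM in 6A, against 196 and 193 CPM in WT (-0.46, edgeR adjusted p = 0.065), and Gbx2 stood at 16.6 and 13.4 CPM in 6A, against 25.9 and 24.6 CPM in WT (-0.76, edgeR adjusted p = 0.085). Summed over the list, the 6A libraries had 8951 and 8350 CPM and the WT libraries 9084 and 8883, so that the groups overlapped.

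Signalling lists held few calls, beside 0.518% of all tested genes called lower. Of 27 genes of FGF and ERK output Egr4, an immediate early transcription factor, was called lower, at 0.257 and 0.401 CPM in 6A, against 1.73 and 1.77 CPM in WT (-2.34, edgeR adjusted p = 0.042), and 21 were negative. Fgf17, a ligand of the same family as Fgf5 that was chosen after its values were seen, had 23.4 and 18.3 CPM in 6A, against 46.5 and 44.3 CPM in WT (-1.12, edgeR adjusted p = 0.0034). Of 45 Wnt genes 2 were called lower, Lef1 and Sfrp4, a secreted Wnt modulator at 2.48 and 1.602 CPM in 6A, against 6.66 and 6.00 CPM in WT (-1.64). Of 20 Notch genes Lfng, which glycosylates Notch receptors, was called lower, at 8.38 and 6.14 CPM in 6A, against 16.2 and 11.9 CPM in WT (-0.94, edgeR adjusted p = 0.045). Of 33 genes of hypoxia and glycolysis Egln3, an oxygen-sensing prolyl hydroxylase, was called lower, at 4.96 and 5.07 CPM in 6A, against 10.9 and 10.5 CPM in WT (-1.09, edgeR adjusted p = 0.0060). None of 43 genes of Nodal, BMP and TGF-beta signalling was called by edgeR, with 12 at an unadjusted p under 0.05 and 1 call by DESeq2.

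The most abundant falls were modest in size. After Hnrnpk came Glul, glutamine synthetase, at 391 and 357 CPM in 6A, against 556 and 510.0 CPM in WT (-0.51), and Mycn, a growth-promoting transcription factor of stem cells, at 370.5 and 302 CPM in 6A, against 481 and 493 CPM in WT (-0.54). Tle4, a co-repressor, had 289.5 and 279 CPM in 6A, against 379.8 and 393 CPM in WT (-0.44), and Bcat2, which degrades branched-chain amino acids, had 111 and 102 CPM in 6A, against 159.6 and 149.8 CPM in WT (-0.54). Their edgeR adjusted p-values lay between 0.040 (Bcat2) and 0.050 (Tle4), and each call was lost in 8 or 9 of 15 alternatives. Terc, the telomerase RNA, had 86.6 and 87.7 CPM in 6A, against 137 and 164 CPM in WT (-0.79, edgeR adjusted p = 0.017). It was the 1 call among 7 abundant small RNAs, beside 0.518% of all tested genes called lower. Their sum was 8269 and 5811 CPM in 6A, against 12347 and 7928 CPM in WT, so that the groups overlapped.

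Rises of abundant autosomal genes were of similar size. Gab1, an adaptor of receptor signalling, had 434 and 484 CPM in 6A, against 276 and 300.2 CPM in WT (log2 fold change 0.67 ± 0.11, edgeR adjusted p = 0.0096). Of its allele reads 45.9% came from the 129 genome, 40.9% in 6A and 55.1% in WT. Its log2 fold change was 1.07 in CAST reads but 0.22 in 129 reads (edgeR adjusted p = 0.0010 and 0.56). Gab1 counts among the imprinted genes, of which 3 of 49 tested were called higher and none lower, beside 1.06% of all tested genes called higher. The other 2 were Sfmbt2, a Polycomb-related protein of the placenta, at 137 and 144 CPM in 6A, against 80.3 and 88.7 CPM in WT (0.73), and Peg12 at 13 and 12.3 CPM in 6A, against 6.54 and 5.86 CPM in WT (1.04). Of 276 solute carriers 4 were called higher and 1 lower, shares near the 1.06% and 0.518% of all tested genes. Slc1a1, a glutamate transporter, had 11.1 and 13.4 CPM in 6A, against 4.44 and 3.88 CPM in WT (1.58), and Slc7a2, a cationic amino acid transporter, had 16.5 and 16.6 CPM in 6A, against 8.88 and 7.70 CPM in WT (1.01). Slc5a3, a myo-inositol transporter, had 282 and 292 CPM in 6A, against 173 and 178 CPM in WT (0.71), and Slc30a4, a zinc transporter, had 95.4 and 98.5 CPM in 6A, against 69.5 and 55.8 CPM in WT (0.64), while Slc5a11 stood at 2.05 and 2.60 CPM in 6A, against 6.17 and 4.94 CPM in WT (-1.22). Of 34 Hox genes 1 was called higher, beside 1.06% of all tested genes. This was Hoxd13, at 36.4 and 42.2 CPM in 6A, against 23.7 and 24.9 CPM in WT (0.69, edgeR adjusted p = 0.040).

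Several fibroblast markers and single blood cell genes also rose. Of the 49 fibroblast markers 5 were called higher and none lower, beside 1.06% of all tested genes called higher. Of the markers 48 were positive, beside 52.0% of all tested genes, and the median was 0.31. Lox, which crosslinks collagen, had 133 and 131 CPM in 6A, against 87.0 and 84.4 CPM in WT (0.63), and Timp3, an inhibitor of matrix proteases, had 123 and 128 CPM in 6A, against 82.7 and 80.6 CPM in WT (0.62). Postn, Cdh11 and Cxcl12 had log2 fold changes of 0.53, 0.53 and 0.49. All 5 were below the Y-linked 0.71, and Lox was read from the 129 genome for 98.6% of allele reads at day 0 and 99.1% at day 14. Without 6A replicate 1 or 2 no fibroblast marker was called, 10 were called without WT replicate 1, and 2 without any 1 library of day 14. Il1rl1, an interleukin receptor, had 386 and 408 CPM in 6A, against 296 and 248 CPM in WT (0.55), and Hmga2, a chromatin protein of growing embryonic cells, had 320.5 and 367 CPM in 6A, against 236 and 229 CPM in WT (0.56), with 96.7% and 89.3% of allele reads from the 129 genome at day 0 and 100% and 90.1% at day 14. Of 16 blood and macrophage markers Lyz2, lysozyme, was called higher at 2.82 and 3.67 CPM in 6A, against 1.36 and 1.13 CPM in WT (1.42), and so was Mpeg1, a pore-forming protein of macrophages, at 6.16 and 6.14 CPM in 6A, against 2.96 and 3.18 CPM in WT (0.99). The whole blood list summed to 56.9 and 69.3 CPM in 6A, against 65.9 and 68.1 CPM in WT, and 3 members were at 0. Of 39 interferon and antigen presentation genes H2-D1, a class I histocompatibility gene, was called higher at 64.9 and 50.5 CPM in 6A, against 34.7 and 33.1 CPM in WT (0.77), and 32 were positive with a median of 0.21. The calls in the blood and interferon lists stand beside 1.06% of all tested genes called higher.

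The rises as a whole were set beside the feeder measures. Of 164 rises 100 were larger than the Y-linked ratio and 64 were not, and among the 126 autosomal ones the counts were 68 and 58. That ratio comes from unadjusted totals, whereas the rises are TMM-scaled. It is not an upper limit for feeder RNA, since log2 fold changes reached 1.33 in the set of 90 genes read nearly only from 129 and 0.95 among the fibroblast markers. Of 27 autosomal rises that could be judged because both genomes were read at day 14, 3 were read from 129 for at least 95% of reads at day 0 and 18 for 20 to 80%, with a median share of 73.2% at day 0 and 51.6% at day 14. Of 21 such falls none reached 95%, 20 lay between 20 and 80%, and the median share was 51.0%, and over 3801 such genes tested 90 reached 95% and the median was 55.2%. In CAST reads 55 of the 61 autosomal rises that could be fitted kept their sign, with a median of 0.70, beside 0.66 in all reads, and all 29 autosomal falls that could be fitted did so. Of the 61 rises 4 were called in CAST reads, and of the 29 falls 4. CAST reads are part of all reads, so agreement in sign was partly fixed in advance, and rises with few CAST reads were not fitted. Whether feeder reads were assigned to CAST was not tested. With the 138 marked genes left out before scaling 207 genes were called, 125 of them higher, close to the 213 and 131 that RLE scaling gave with these genes kept. The part of feeder RNA in single autosomal rises was not tested beyond these values.

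Most other groups held no call. In 25 of the 45 lists, with 845 tested members counted list by list, edgeR called none, DESeq2 called 3, and 109 members had an unadjusted p under 0.05. Replication-dependent histones stood lowest, with 55 of 60 negative, a median of -0.45, and sums of 6990 and 5909 CPM in 6A, against 9268 and 8420 CPM in WT. Cytosolic ribosomal proteins had 74 of 90 negative and a median of -0.19, and their sums of 20226 and 18040 CPM in 6A and 23768 and 20493 CPM in WT did not overlap. Neither list had a called gene. Among the hnRNP proteins, the relatives of hnRNP K, none of 26 was called, 2 had an unadjusted p under 0.05, and the median was -0.03. Lists of sterol synthesis, mitosis, heat shock and unfolded protein response, endoderm, primitive streak and mitochondrial ribosomal proteins had medians between -0.09 and 0.06.

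Differences at day 14 were set beside those of undifferentiated cells, and the 2 comparisons share no library. At day 14 2109 of the 15458 genes changed (13.6%). Of the 164 rises of day 0, 34 were also higher and 14 lower at day 14, and their median log2 fold change at day 14 was 0.17. Of the 80 falls 30 were also lower and 4 higher, with a median of -0.40. The interaction, the 6A effect at day 14 minus that at day 0, was called for 733 genes (4.74%), among them 49 of the rises and 31 of the falls, and 49 and 28 of these pointed to a smaller effect at day 14. The genes were chosen by their day 0 values, which enter the interaction, so these counts are a description only.

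Most of the germline rises were not called at day 14. Of the 15 X-linked germline genes 3 were also higher at day 14, Xlr3a (1.19), Xlr3c (1.09) and Mageb16 (1.65), and the median of the 15 was 0.16. None of the 6 autosomal ones was called at day 14, and their median was -0.12. Scml2 and Usp26 had 0.16 and -0.55 at day 14, beside 2.38 and 2.25 at day 0. In the epithelial list 19 of 43 genes were lower and 1 higher at day 14, and the median was -0.58. Of the 6 epithelial calls of day 0, Cldn4 (-1.11) and Esrp1 (-0.62) were also lower at day 14, and Celsr3 was lower at both times (-1.45 and -1.81). Zfp600, Zfp534 and Gm13247 were higher at both times, with 0.77, 0.81 and 0.66 at day 14.

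**Figure D5:**
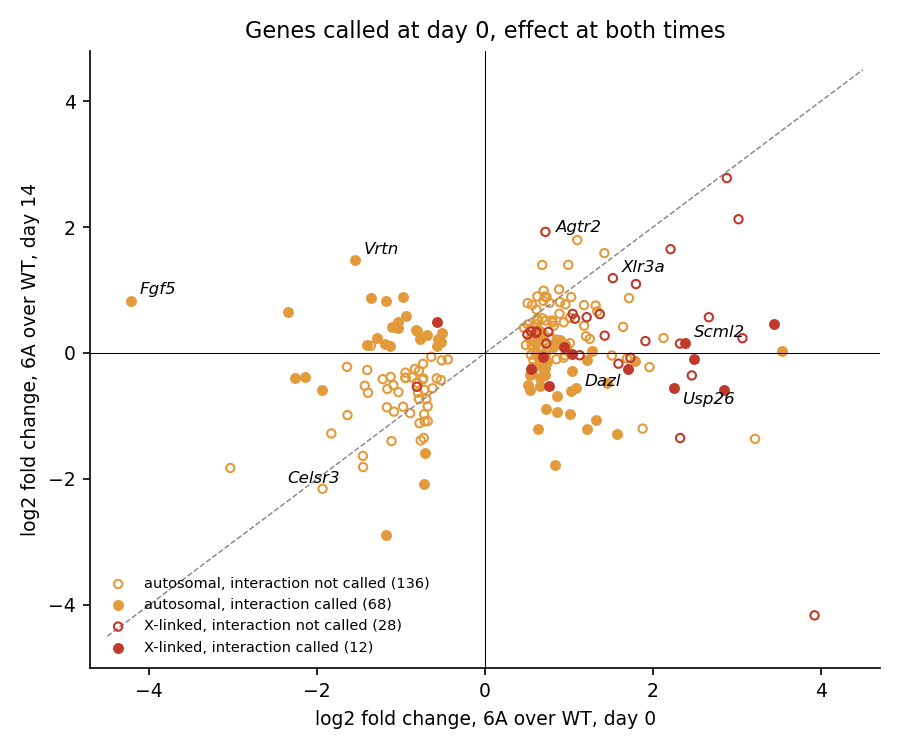
Log2 fold change of 6A over WT at day 0 (horizontal axis) and at day 14 (vertical axis) for the 244 genes called at day 0, with X-linked genes in red and filled points where the interaction was called. The dashed line marks equal effects. Scml2 and Usp26 lie near 0 at day 14 (0.16 and -0.55), Fgf5 and Vrtn lie above 0 (0.82 and 1.47), and Celsr3 lies near the line.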

How the data were processed

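RNA was sequenced from 8 libraries, 2 each of 6A and WT at day 0 and day 14. The later time is day 14 in the titles and protocol but day 7 in the series' design text, and it is called day 14 here. The deposited values are raw counts of reads per gene, for all reads and for reads assigned to CAST or 129, and 29.1 to 31.6% of counts were allele-assigned. The submitters' processing notes list cutadapt 1.4.2, STAR 2.7.10a and the build mm10, without giving their settings. The sources used here name no counting tool, strand setting, annotation or rule of allele assignment, and the column headed mus was read as 129.

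Total counts ranged from 8146684 to 15540163 per library, and intervals cover counting error only. All 8 libraries were fitted with edgeR 4.0.16 (R 4.3.3; TMM, filterByExpr, robust quasi-likelihood test, 1 coefficient per group). A call is a Benjamini-Hochberg adjusted p under 0.05 over all tested genes, in each comparison and in the CAST and 129 fits. The procedure was tested on simulated data. DESeq2 1.42.0, other scalings, no filter, the 4 libraries alone, a replicate block and leaving out each library were alternatives.

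GENCODE M21 placed 23264 symbols directly and 672 through an older symbol. Feeder-marked genes were read from 129 for at least 95% of 20 or more allele reads at day 0 and for 20 to 80% at day 14, or were fibroblast or Y-linked markers. Genes were named from among Hnrnpk, Xist, Tsix, the 25 calls in each direction with the largest change and at least 1 CPM, the 10 most abundant in each direction, called X-linked genes, and called members of lists, or up to 3 members of smallest p in lists without a call. Predicted genes were passed over, and exceptions are marked in the text. The 45 lists and the genes were chosen with earlier results of these data known, and some exclusions from lists were made after values were seen. The check of promoter features was void for all tested genes, autosomal rises, falls and epithelial genes, since fewer than 80% matched a RefSeq promoter.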

Additional observations from a re-analysis of the deposited data

Results flagged for a closer look

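The 6A effect differed between day 0 and day 14 by a test of the difference itself (edgeR interaction, day 14 minus day 0, on the log2 scale), and the 10 named genes with the smallest p are given. The genes were picked by their day 0 values, which enter that difference. Among germline genes it was -2.22 for Scml2 (2.38 at day 0, 0.16 at day 14, edgeR adjusted p = 8.0e-05) and -2.80 for Usp26 (2.25 and -0.55, 8.0e-05 by edgeR). Dazl had -1.91 (1.78 and -0.13, 0.0017 by edgeR), and Tuba3b had -1.34 (1.22 and -0.12, 0.0028 by edgeR).

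Other rises with such a difference were Slc7a2 at -1.98 (1.01 at day 0 and -0.97 at day 14, 0.00047 by edgeR), Miip at -1.94 (1.46 and -0.48, 0.0013 by edgeR) and Slc5a3 at -1.05 (0.71 and -0.34, 0.0031 by edgeR). Among falls, Fgf5 had 5.04 (-4.22 and 0.82, 0.0015 by edgeR), Vrtn had 3.02 (-1.55 and 1.47, 0.00050 by edgeR), and Smpd3, a sphingomyelinase, had 2.23 (-1.36 and 0.87, 0.0012 by edgeR).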

How the results depend on the processing

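The count of called genes depended on the fit. Against 244 genes (164 higher and 80 lower, with 38 X-linked rises), no filter on low counts gave 459 (293 and 166). The 4 libraries alone gave 23 (18 and 5, with 9 X-linked rises), CAST reads gave 21 (15 and 6, with 9), 129 reads 30 (19 and 11, with 7), and a log2 fold change over 1 gave 93 (58 and 35). DESeq2 called 22 X-linked rises. Leaving out 1 library gave 32 to 567 calls, 24 to 332 higher, 8 to 235 lower and 11 to 47 X-linked rises. Replicates of the same number were not treated as pairs in the main fit. At day 0 the deviations of replicate 1 from its group mean correlated at 0.057 between 6A and WT, and day 14 was not checked. The fit with the replicate block called 466 genes (320 and 146). The 112 called named genes kept their direction in all 15 alternatives of all reads, and 15 kept their call. In CAST reads 3 of the 54 called named genes that could be fitted changed sign, and all 3 were rises in all reads. Serinc1 had -0.022 there beside 0.56 in all reads, Cxcl12 -0.0052 beside 0.49, and Fmr1nb -0.081 beside 0.61. Effects near 0 also changed sign. Xist ranged from -0.29 to 0.043 without 1 library, and Tsix from -0.059 to 0.082. Tsix had -0.0053 with RLE, -0.0042 with upper quartile scaling, -0.0066 with no filter, -0.0088 with the 4 libraries, -0.0052 with DESeq2, -0.0045 without feeder-marked genes and -0.56 in 129 reads. The causes were not tested. The counts of list members under these settings were added after seeing the data. The allele fits rest on fewer reads, with 493840 to 937285 CAST counts and 2018022 to 3886726 129 counts in a day 0 library.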
